A study of Mus musculus with 43 samples.

Results

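The genes described here are 30 mouse genes of cholesterol synthesis and sterol handling. The rule names them by symbol, with no measured value in it, but the list was drawn up with earlier results of these data known. The symbols were matched by NCBI Gene ID to the table of 24475 genes. All 30 passed the filter on low counts and were among the 15979 genes tested. They comprise 18 synthesis enzymes, 5 genes of the SREBP system, 3 genes of the LXR and efflux system and 4 genes of sterol transport and storage.

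RNA of whole lung from 43 female mice of mixed 129S6/C57BL/6 background was sequenced. The design gives their age as 8 to 12 weeks, which cannot be the age at collection after 11 or 19 weeks of exposure. Age at collection may thus differ between exposures and cannot be told apart from them. In the animals used to assess the antibodies, mouse IL-4, IL-33 and the ectodomain of IL-4Rα had been exchanged for the human sequences. House dust mite extract (HDM), an allergen that sets off airway inflammation, was applied intranasally on 3 occasions per week. Antibodies were itepekimab against IL-33, dupilumab against IL-4Rα, and an isotype control antibody. The 4 groups with 19 weeks of HDM and antibody were anti-IL-33+anti-IL4Ra, called the combination (n = 5), anti-IL4Ra+isotype (n = 7), anti-IL-33+isotype (n = 6) and isotype (n = 7). Of the mice without antibody, 7 had HDM for 19 weeks, 6 had it for 11 weeks and 5 had saline. The study's design names exposures of 4, 15 or 19 weeks and antibody starts at day -3, 4 weeks or 11 weeks, whereas the labels give 11 or 19 weeks of exposure and no antibody start, and the labels were followed. Neither source says how long saline lasted or whether mice without antibody carried the human alleles. Nothing states that the lungs of a group came from separate litters, so p-values measure the spread between these samples.

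Cells make cholesterol from acetyl-CoA through mevalonate, isoprenoid units, squalene and lanosterol. When the membrane of the endoplasmic reticulum is low in sterol, SCAP carries the SREBP transcription factors to the Golgi for activation, and SREBP-2 then raises transcription of the synthesis enzymes, while INSIG proteins hold SCAP back when sterol is plentiful. Oxysterols that accumulate with cholesterol activate LXR, whose targets include the export pumps ABCA1 and ABCG1. In the lung, alveolar type 2 cells secrete cholesterol with surfactant, and alveolar macrophages take surfactant up and depend on ABCG1 to export its cholesterol.

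The promoter windows of 5 members are printed because they belong to enzymes that rose or carry a sterol element, and to the only members with an LXR repeat. They run from 250 bases before to 50 after a gene start in RefSeq on GRCm38.p6, which held windows for 24 of the 30 members. Capitals mark the motifs searched on both strands, TCACNCCAC (sterol regulatory element), CCAAT (NF-Y box) and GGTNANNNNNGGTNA (LXR repeat). None of these overlapped another motif in the windows shown. The windows lie at chr13:119690101-119690400 (Hmgcs1, plus strand), chr7:143829964-143830263 (Dhcr7, plus, 1 of its 3 windows), chr8:122443373-122443672 (Mvd, minus), chr4:53159846-53160145 (Abca1, minus) and chr11:60210422-60210721 (Srebf1, minus, 1 of its 3 windows).
Hmgcs1: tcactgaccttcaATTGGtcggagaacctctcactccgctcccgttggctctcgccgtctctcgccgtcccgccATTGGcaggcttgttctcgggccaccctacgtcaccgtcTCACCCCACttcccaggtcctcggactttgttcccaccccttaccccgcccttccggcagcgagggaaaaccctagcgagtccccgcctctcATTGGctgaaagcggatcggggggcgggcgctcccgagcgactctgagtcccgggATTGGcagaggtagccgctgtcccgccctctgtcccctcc
Dhcr7: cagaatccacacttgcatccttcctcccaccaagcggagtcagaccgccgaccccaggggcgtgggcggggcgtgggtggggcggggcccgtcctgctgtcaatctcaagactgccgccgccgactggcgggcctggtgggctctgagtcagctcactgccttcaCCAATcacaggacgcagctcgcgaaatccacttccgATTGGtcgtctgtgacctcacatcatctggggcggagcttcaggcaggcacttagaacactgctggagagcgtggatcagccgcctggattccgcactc
Mvd: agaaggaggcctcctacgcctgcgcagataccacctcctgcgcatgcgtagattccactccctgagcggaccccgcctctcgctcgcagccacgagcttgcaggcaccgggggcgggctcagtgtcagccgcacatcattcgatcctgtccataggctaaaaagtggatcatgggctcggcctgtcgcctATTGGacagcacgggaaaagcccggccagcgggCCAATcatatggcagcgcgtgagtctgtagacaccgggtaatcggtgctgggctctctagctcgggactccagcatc
Abca1: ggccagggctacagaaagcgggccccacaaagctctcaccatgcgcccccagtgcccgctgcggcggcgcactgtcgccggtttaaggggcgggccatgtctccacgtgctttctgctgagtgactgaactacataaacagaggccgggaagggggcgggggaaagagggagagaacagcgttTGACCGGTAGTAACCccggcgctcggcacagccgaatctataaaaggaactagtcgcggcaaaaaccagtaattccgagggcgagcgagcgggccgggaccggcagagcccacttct
Srebf1: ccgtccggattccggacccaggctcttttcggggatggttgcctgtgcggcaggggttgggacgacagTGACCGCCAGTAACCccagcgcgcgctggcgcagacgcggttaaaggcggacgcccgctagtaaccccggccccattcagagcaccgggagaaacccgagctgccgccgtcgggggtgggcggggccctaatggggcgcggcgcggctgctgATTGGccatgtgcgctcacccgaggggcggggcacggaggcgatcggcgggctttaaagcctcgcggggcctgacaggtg

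The sterol element stood in 1 of the 24 members, Hmgcs1, beginning 137 bases before the start, and in 1.44% of all 27025 genes with a window. CCAAT or its reverse ATTGG stood in 20 of the 24 members, compared with 41.1% of all genes. The LXR repeat was found in Abca1, beginning 67 bases before the start, and in Srebf1, beginning 182 bases before it, and in 0.818% of all genes. These are matches of letters in short windows and not measured binding.

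Library totals lay between 11.9 M and 26.7 M expected counts. Values are counts scaled to library size (CPM, per M counts after TMM), and fold changes, standard errors (SE) and adjusted p are from edgeR's quasi-likelihood test over all genes tested, with an adjusted p under 0.05 counted as a change. The lung label was borne out by the surfactant gene Sftpc, at 9400 ± 1800 CPM in saline lungs (SD, n = 5). Libraries differed in their GC slope, the gain in a gene's log2 CPM over its mean across the 43 libraries for each 10 percentage points of transcript GC. It averaged 0.34 in the combination, 0.26 with anti-IL4Ra, 0.27 with anti-IL-33, -0.13 with isotype, 0.16 at 19 weeks, -0.37 at 11 weeks and -0.62 in saline. It exceeded 0.75 in 9 libraries, 3 of them in the combination, 3 with anti-IL4Ra, 2 with anti-IL-33 and 1 at 19 weeks. Leaving these out kept 19-week replicates 7 and 1, at slopes of 0.744 and 0.554, where saline ran from -0.83 to -0.34. A difference in slope from saline thus remained in that setting. Members moved with the GC slope in both directions. Per unit of slope, log2 CPM changed by 1.89 for Srebf1, 1.58 for Scap and 1.54 for Mvk, with GC-rich transcripts (58.4%, 59.1% and 59.6%). It changed by -1.18 for Hmgcs1, -1.14 for Idi1 and -1.11 for Sc5d, with GC-poor transcripts (43.1%, 41.9% and 42.9%). It changed by only 0.02 for Fdft1, 0.09 for Abcg1, -0.16 for Msmo1 and 0.21 for Npc2. Saline replicate 3 stood apart, with summed adipocyte markers at 1190 CPM against a saline median of 54.6 CPM and squamous markers at 2130 CPM against 6.84 CPM. Anti-IL4Ra replicate 2 held 193000 CPM of erythroid markers.

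Levels between genes were compared per kilobase of transcript. In saline lungs the order ran from Npc2, a lysosomal sterol carrier, at 169 CPM per kilobase, through the enzymes Fdps at 38.2 and Hmgcs1 at 36.2, to the enzyme Hsd17b7 at 2.99.

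With 11 weeks of HDM, the lysosomal carrier Npc2, the esterifying enzyme Soat1, the pump Abcg1 and the enzymes Dhcr7, Mvd and Sqle rose, and no member fell. With 19 weeks, Npc2, Soat1, Abcg1, Npc1, Dhcr7, Mvd and Srebf1 rose, and Idi1, Lbr and Insig2 fell. With 19 weeks and isotype antibody, Npc2, Soat1, Abcg1, Npc1, Dhcr7 and Mvd rose and Lbr fell. These 3 comparisons share the same 5 saline libraries and are not independent of each other. They called 6 of 30 members (20%) at 11 weeks, where 15.4% of all genes were called, 10 of 30 (33.3%) at 19 weeks against 34.8% of all genes, and 7 of 30 (23.3%) with isotype against 25.3%. The share of members called was thus near that of all genes, and what follows concerns which members moved and how far. By direction, 8.65% of all genes were higher and 6.74% lower at 11 weeks, 19.2% higher and 15.6% lower at 19 weeks, and 13% higher and 12.4% lower with isotype. The plot of fold changes at both exposures shows the 4 roles side by side.

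**Figure D1:**
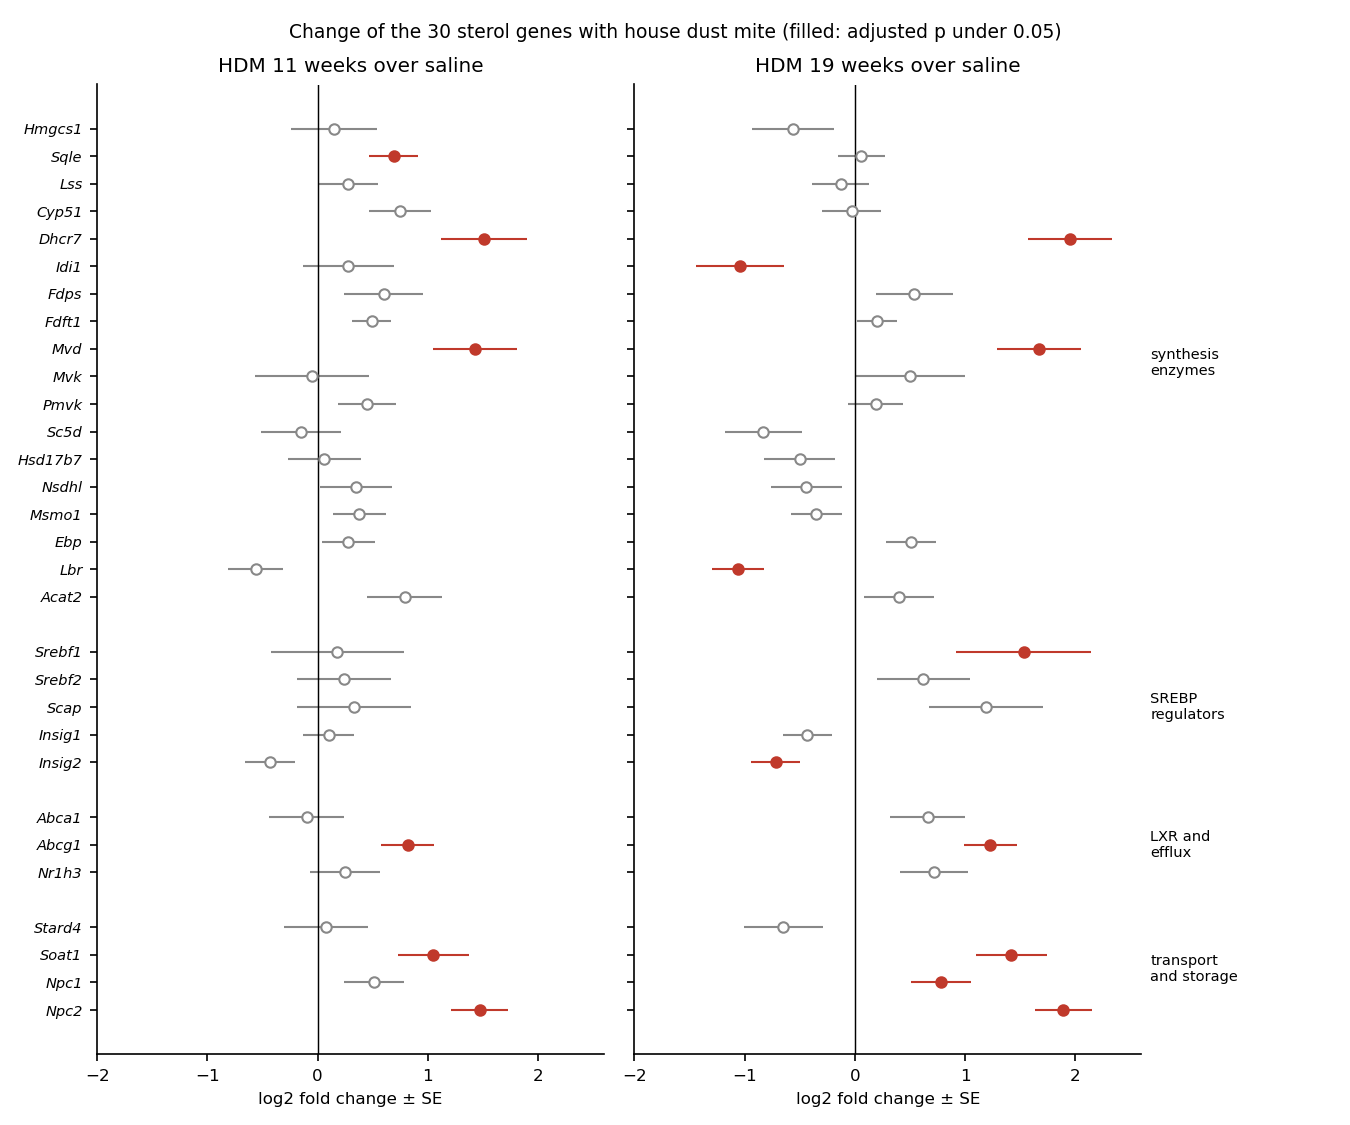
Log2 fold change with its standard error (x axis) of the 30 members (y axis, by role) at 11 weeks of HDM over saline (left) and 19 weeks over saline (right), filled where the adjusted p was under 0.05. Npc2 lies farthest to the right among transport genes, at 1.47 and 1.89, while the enzymes lie mostly right of 0 at 11 weeks (15 of 18) and on both sides at 19 weeks (9 of 18 right of it).

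Among the 18 synthesis enzymes, 3 rose and none fell at 11 weeks, 2 rose and 2 fell at 19 weeks, and 2 rose and 1 fell with isotype. At 11 weeks their median log2 fold change was 0.37 and 15 of 18 were positive, beside a median of 0.00 and 50.3% positive over all genes tested. At 19 weeks the median was 0.01 with 9 positive, and with isotype 0.17 with 11 positive.

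Dhcr7 (Gene ID 13360, chr7:143823167-143848410) reduces 7-dehydrocholesterol in the last step of synthesis. It had 47.0, 59.2 and 75.9 CPM at 11 weeks (lowest, median, highest) and 50.9, 60.9 and 142 CPM at 19 weeks, against 18.7, 19.0, 32.2, 16.9 and 18.3 CPM in the 5 saline lungs. Every HDM lung was above every saline lung, and the highest saline value was that of replicate 3. The log2 fold change was 1.51 (SE 0.39, adjusted p 0.00503) at 11 weeks, 1.95 (SE 0.38, adjusted p 0.000152) at 19 weeks and 1.75 (SE 0.38, adjusted p 0.000582) with isotype. A fit with the GC slope as a term gave 1.28, 1.05 and 1.20 in that order, all called.

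Mvd (Gene ID 192156, chr8:122433596-122443422) decarboxylates mevalonate diphosphate to the isoprenoid unit. It had 22.6, 24.8 and 30.4 CPM at 11 weeks and 21.1, 30.8 and 44.4 CPM at 19 weeks, against 7.87, 8.37, 14.3, 7.62 and 8.92 CPM in saline. Again no HDM lung reached down to a saline lung. The change was 1.43 on the log2 scale (SE 0.38, adjusted p 0.00708) at 11 weeks, 1.67 (SE 0.38, adjusted p 0.000732) at 19 weeks and 1.68 (SE 0.38, adjusted p 0.000807) with isotype, and 0.84 at 19 weeks with the GC slope as a covariate (adjusted p 0.000321).

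Sqle, the squalene epoxidase, had 50.2, 56.8 and 77.0 CPM at 11 weeks and 24.8, 37.2 and 54.4 CPM at 19 weeks, against 39.4, 35.6, 45.0, 35.8 and 33.8 CPM in saline. At 11 weeks all 6 lungs were above all saline lungs, while at 19 weeks the groups overlapped on both sides. It was called at 11 weeks, with a log2 fold change of 0.69 (SE 0.22, adjusted p 0.0240), and its fold change at 19 weeks was 0.06 (SE 0.21, adjusted p 0.843). The call at 11 weeks ended without saline replicate 1, 2, 4 or 5 or without HDM replicate 1 or 2, with fold changes from 0.60 and adjusted p up to 0.0812 over all libraries left out.

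Lbr (Gene ID 98386, chr1:181815315-181842401) encodes a protein of the inner nuclear membrane that binds lamin B and also reduces the sterol ring at carbon 14. It had 37.1, 42.0 and 47.8 CPM at 11 weeks and 22.2, 28.3 and 43.2 CPM at 19 weeks, against 58.8, 71.1, 50.2, 62.5 and 70.2 CPM in saline. All HDM lungs of both exposures were below all saline lungs. It fell by 1.06 on the log2 scale (SE 0.24, adjusted p 0.000668) at 19 weeks and by 0.97 (SE 0.24, adjusted p 0.00202) with isotype. At 11 weeks the log2 fold change was -0.56 (SE 0.25, adjusted p 0.128), short of the threshold although the groups did not overlap. Adding the GC slope as a covariate gave -0.61 at 19 weeks (adjusted p 0.00554).

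Idi1, the isomerase of the isoprenoid units, had 53.0, 83.0 and 114 CPM at 11 weeks and 13.9, 37.1 and 62.6 CPM at 19 weeks, against 82.9, 71.9, 64.6, 65.8 and 63.9 CPM in saline. The 7 lungs at 19 weeks lay below all saline lungs, and those at 11 weeks overlapped them. Its log2 fold change was -1.04 (SE 0.40, adjusted p 0.0384) at 19 weeks and 0.28 (SE 0.41, adjusted p 0.741) at 11 weeks. It was -0.35 at 19 weeks (adjusted p 0.288) once the GC slope was a covariate, and leaving out saline replicate 1, 2, 4 or 5 or HDM replicate 1, 2 or 7 also ended the call, with adjusted p up to 0.0884. Leaving out the 9 libraries of GC slope above 0.75, 1 of them at 19 weeks, kept it lower, at -0.93 (adjusted p 0.0109). That setting raised calls over all genes at 19 weeks from 3072 higher and 2490 lower to 4442 and 4342.

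The 13 other enzymes did not pass the test in these comparisons. At 11 weeks, Cyp51, the lanosterol demethylase, had 50.3 to 75.4 CPM against 29.7 to 47.6 CPM in saline with no overlap (log2 fold change 0.75, SE 0.28, adjusted p 0.0619), and Acat2, which makes acetoacetyl-CoA, had 45.2 to 59.3 CPM against 25.7 to 37.8 CPM with no overlap (0.79, SE 0.34, adjusted p 0.112). Hmgcs1, which commits acetyl units to mevalonate and carries the sterol element printed above, had 51.8 to 111 CPM at 19 weeks against 111 to 134 CPM in saline, just without overlap (log2 fold change -0.56, SE 0.37, adjusted p 0.230). Adding the GC slope as a covariate gave 0.26 (adjusted p 0.196), on the other side of 0, while leaving out the libraries of slope above 0.75 gave -0.50 (adjusted p 0.0407). At a limit of 0.7, chosen after seeing the data, Hmgcs1 was not called. The remaining 10 enzymes, Lss, Fdps, Fdft1, Mvk, Pmvk, Sc5d, Hsd17b7, Nsdhl, Msmo1 and Ebp, had fold changes from -0.15 to 0.60 at 11 weeks and from -0.83 to 0.54 at 19 weeks. Groups that did not overlap were found for 9 of 30 members at 11 weeks (21.6% of all genes), 12 of 30 at 19 weeks (28.6% of all genes) and 9 of 30 with isotype (27.3% of all genes).

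**Figure D2:**
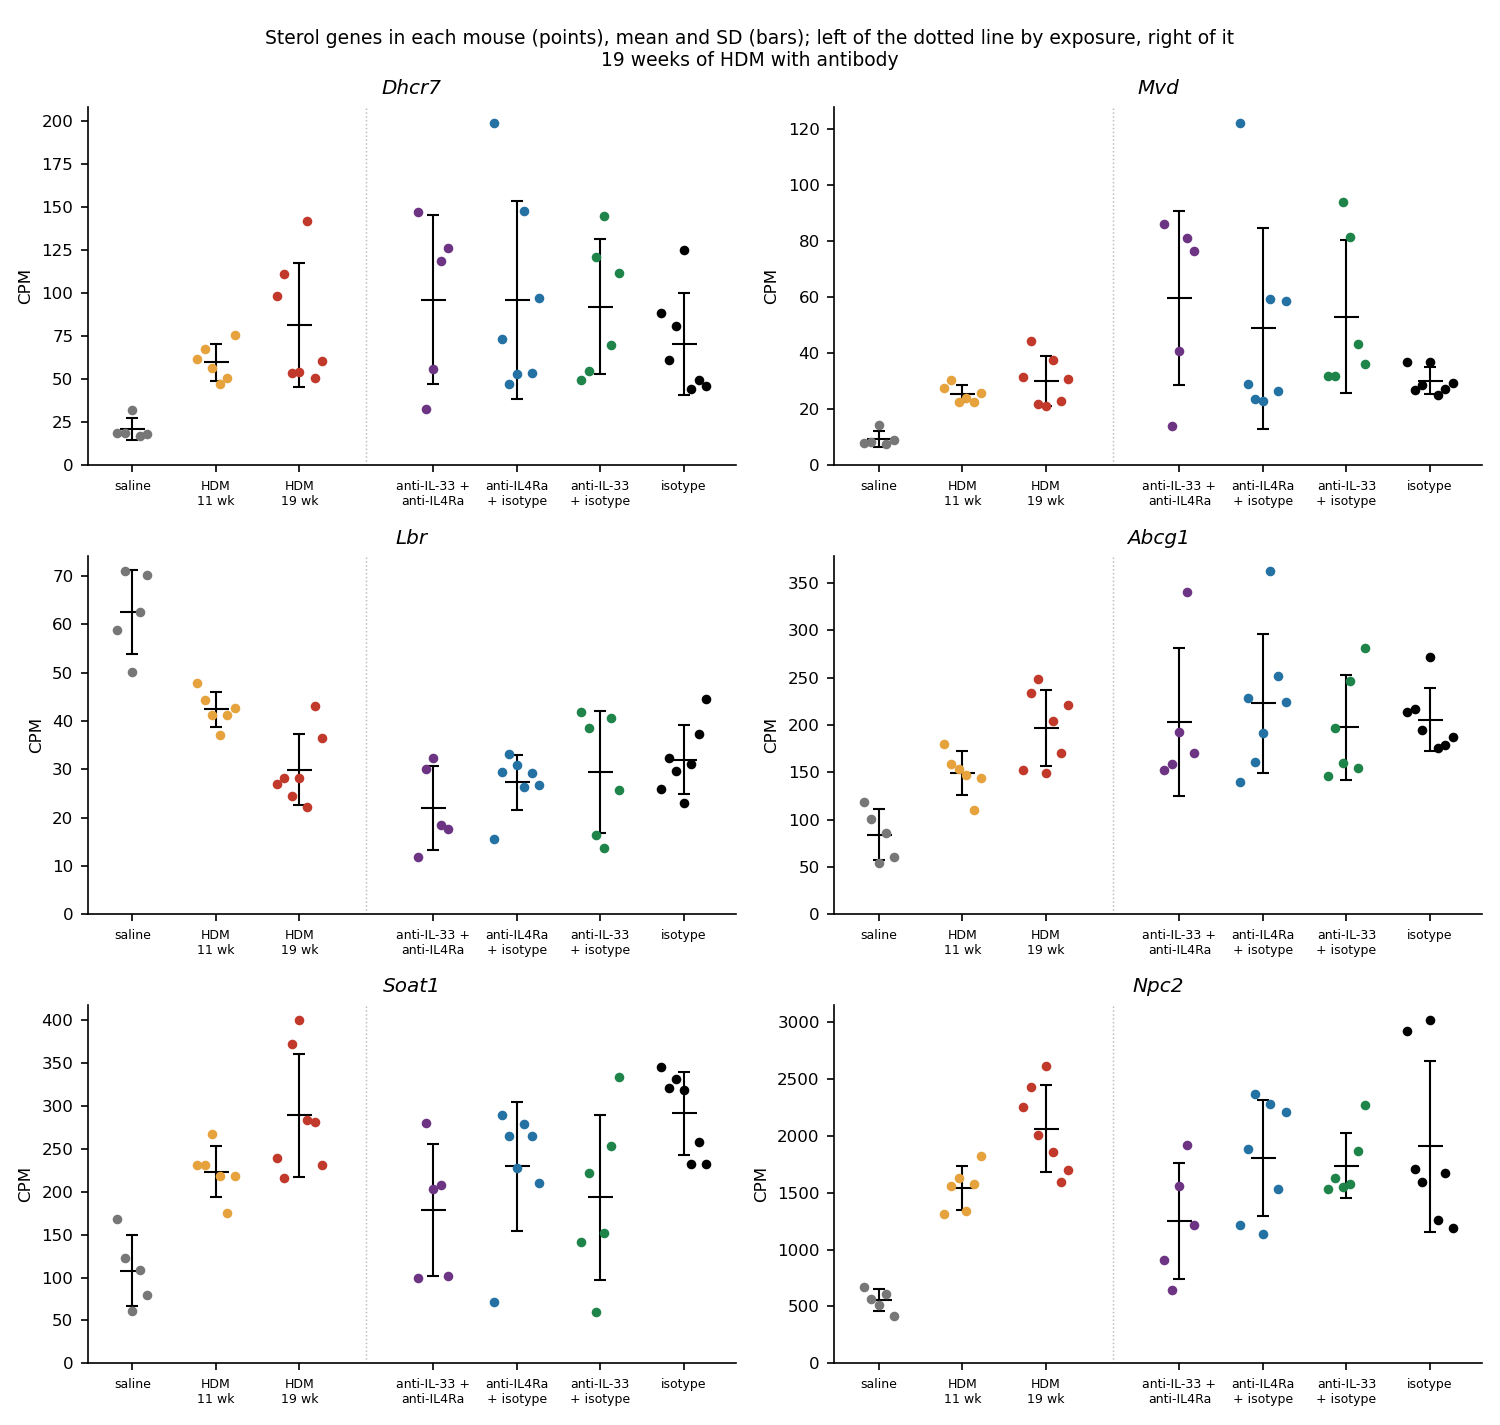
CPM (y axis, linear from 0) of Dhcr7, Mvd, Lbr, Abcg1, Soat1 and Npc2 in each of the 43 mice (points), with mean and SD (bars). Groups without antibody stand left of the dotted line in order of exposure, and groups with 19 weeks of HDM and antibody right of it. For Npc2 the 13 HDM lungs without antibody sit between 1310 and 2610 CPM, above all 5 saline lungs at 416 to 675 CPM.

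Of the 5 genes of the SREBP system none was called at 11 weeks, 1 rose and 1 fell at 19 weeks, and none was called with isotype. Srebf1 encodes SREBP-1, which mainly drives fatty acid synthesis and is itself an LXR target. It had 61.6, 77.3 and 120 CPM at 11 weeks and 77.3, 126 and 416 CPM at 19 weeks, against 54.7, 67.4, 131, 62.0 and 64.9 CPM in saline. The lungs at 19 weeks were widely spread and overlapped saline replicate 3. Its log2 fold change was 1.53 (SE 0.61, adjusted p 0.0475) at 19 weeks and 0.18 (SE 0.60, adjusted p 0.896) at 11 weeks. Its direction turned at 19 weeks, to -0.17 (adjusted p 0.478), once the GC slope was a covariate, and leaving out saline replicate 1, 2, 4 or 5 or HDM replicate 1, 2 or 7 ended the call with adjusted p up to 0.110. It was called without the libraries of slope above 0.75, at 1.24 (adjusted p 0.00469), a setting that kept HDM replicates 1 and 7.

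Insig2, a retention protein of the SCAP complex, had 14.0, 22.1 and 28.7 CPM at 19 weeks, against 39.2, 33.4, 32.5, 36.2 and 31.1 CPM in saline. It fell without overlap, with a log2 fold change of -0.72 (SE 0.22, adjusted p 0.0116), and of -0.35 (adjusted p 0.0974) with the GC slope as a covariate. Insig1, its paralogue and an SREBP-2 target, had 65.0, 79.0 and 115 CPM at 11 weeks and 38.4, 63.3 and 70.4 CPM at 19 weeks, against 87.6, 78.7, 60.2, 74.0 and 86.5 CPM in saline. The groups overlapped and no call was made (log2 fold change -0.43, SE 0.22, adjusted p 0.121 at 19 weeks). Srebf2, which encodes SREBP-2, had 95.3, 148 and 186 CPM at 11 weeks and 97.3, 169 and 295 CPM at 19 weeks, against 108, 120, 144, 126 and 117 CPM in saline. Its log2 fold change was 0.62 (SE 0.42, adjusted p 0.246) at 19 weeks, and -0.51 (adjusted p 0.0145) with the GC slope as a covariate. Scap, which carries the SREBPs, had a fold change of 1.19 at 19 weeks with 59.4 to 213 CPM, against 39.5 to 67.4 CPM in saline, and did not pass. Without the libraries of slope above 0.75 the values at 19 weeks were 1.0 for Scap (adjusted p 0.00392), 0.45 for Srebf2 (adjusted p 0.0855) and -0.67 for Insig2 (adjusted p 0.000822).

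In the LXR and efflux group 1 of 3 genes rose in each of the 3 comparisons, and it was Abcg1 each time. Abcg1 (Gene ID 11307, chr17:31057694-31117984) had 110, 150 and 180 CPM at 11 weeks and 149, 204 and 248 CPM at 19 weeks, against 119, 101, 54.4, 86.1 and 60.5 CPM in saline. Lungs at 19 weeks were all above saline, and at 11 weeks only the lowest lung reached into the saline range. The log2 fold change was 0.82 (SE 0.24, adjusted p 0.0133) at 11 weeks, 1.23 (SE 0.24, adjusted p 0.000110) at 19 weeks and 1.29 (SE 0.24, adjusted p 5.96e-05) with isotype. Without saline replicate 3 it was 0.69 (adjusted p 0.0576) at 11 weeks and 1.09 (adjusted p 0.00106) at 19 weeks, and leaving out saline replicate 5 also ended the call at 11 weeks.

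Abca1, which exports cholesterol to apolipoprotein A-I, had 58.2, 91.6 and 133 CPM at 11 weeks and 69.2, 154 and 277 CPM at 19 weeks, against 131, 115, 84.4, 87.9 and 79.2 CPM in saline. Nr1h3, which encodes LXRα, had 27.5, 31.6 and 41.8 CPM at 11 weeks and 30.6, 42.6 and 65.9 CPM at 19 weeks, against 27, 26.8, 30.7, 26.7 and 28.2 CPM in saline. Both overlapped saline and neither was called. At 19 weeks the log2 fold change was 0.66 (SE 0.34, adjusted p 0.119) for Abca1, and 1.12 (adjusted p 0.00489) with the GC slope in the model, and 0.72 (SE 0.31, adjusted p 0.0663) for Nr1h3, and -0.02 (adjusted p 0.931) with it. Leaving out the libraries of slope above 0.75, 1 of them at 19 weeks, gave 0.58 for Nr1h3 (adjusted p 0.00187) and 0.69 for Abca1 (adjusted p 0.0295). Both passed the threshold there, in a setting that called 4442 of all genes higher and 4342 lower, against 3072 and 2490 with all libraries.

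In the transport and storage group 2 of 4 genes rose at 11 weeks and 3 of 4 rose at 19 weeks and with isotype. Their median log2 fold change was 0.78, 1.10 and 1.13 in that order, beside 0.00, 0.01 and 0.01 for all genes. Npc2 (Gene ID 67963, chr12:84754559-84773112) hands cholesterol to NPC1 inside the lysosome. It had 1310, 1570 and 1820 CPM at 11 weeks and 1590, 2010 and 2610 CPM at 19 weeks, against 675, 568, 516, 607 and 416 CPM in saline. The lowest HDM lung was well above the highest saline lung. On the log2 scale the change was 1.47 (SE 0.26, adjusted p 6.21e-05) at 11 weeks, 1.89 (SE 0.26, adjusted p 5.05e-07) at 19 weeks and 1.78 (SE 0.26, adjusted p 1.40e-06) with isotype, and it was called under every setting and with every library left out.

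Npc1 encodes the membrane protein that moves cholesterol out of the lysosome. It had 176, 188 and 248 CPM at 19 weeks, against 146, 129, 90.5, 129 and 96.2 CPM in saline, with no overlap. Its log2 fold change was 0.78 (SE 0.27, adjusted p 0.0224) at 19 weeks and 0.84 (SE 0.27, adjusted p 0.0184) with isotype, and 0.68 (adjusted p 0.0677) and 0.74 (adjusted p 0.0632) without saline replicate 3. Leaving out saline replicate 5 ended both calls too. Soat1 (Gene ID 20652, chr1:156428108-156474328) esterifies cholesterol for storage in droplets. It had 175, 225 and 267 CPM at 11 weeks and 216, 282 and 401 CPM at 19 weeks, against 168, 123, 60.7, 109 and 79.6 CPM in saline. No HDM lung overlapped saline, though the highest saline lung came close to the lowest one at 11 weeks. On the log2 scale it rose by 1.05 (SE 0.32, adjusted p 0.0204) at 11 weeks, 1.42 (SE 0.32, adjusted p 0.000701) at 19 weeks and 1.43 (SE 0.32, adjusted p 0.000728) with isotype. At 11 weeks it was 0.89 (adjusted p 0.0806) without saline replicate 3, and leaving out saline replicate 5 or HDM replicate 3 also ended that call. Stard4, which ferries cholesterol between membranes, had 8.77 to 21.6 CPM at 19 weeks, against 22.0 to 27.8 CPM in saline, and was not called although the groups did not overlap (log2 fold change -0.65, SE 0.36, adjusted p 0.154). It was -0.60 (adjusted p 0.00484) without the libraries of slope above 0.75, and 0.07 (adjusted p 0.840) with the GC slope in the model.

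Markers of several cell types differed between the same groups. Summed CPM of the 10 macrophage markers ran from 5280 to 12300 at 11 weeks and from 5500 to 11800 at 19 weeks, against 2650 to 5970 in saline. The sum of 10 markers of lipid-laden macrophages ran from 4910 to 14000 at 11 weeks and from 5970 to 13900 at 19 weeks, against 1540 to 2340 in saline, and 8 of the 10 rose and 1 fell at 19 weeks. The sum of 10 alveolar type 2 markers ran from 23300 to 38200 at 19 weeks, against 12100 to 21600 in saline. Summed alveolar macrophage markers ran from 7280 to 15500 at 11 weeks and from 4430 to 18200 at 19 weeks, against 327 to 925 in saline, a sum dominated by Chil3, and of the 10 genes 1 rose and 4 fell at 19 weeks. Of the macrophage list 6 of 10 rose and none fell at 19 weeks, and of the alveolar type 2 list 8 rose and none fell. All 5 club cell markers fell, with sums from 3100 to 6300 at 19 weeks, against 12700 to 21500 in saline. Summed CPM of 8 endothelial markers ran from 1390 to 2190 at 11 weeks and from 949 to 2190 at 19 weeks, against 2400 to 3170 in saline. Of these 8, 4 fell and 0 rose at 19 weeks. Of 7 fibroblast markers 5 fell and 2 rose at 19 weeks. Of 7 goblet cell markers 6 rose at 11 weeks and all 7 at 19 weeks, with sums from 649 to 1540 and from 615 to 1230, against 18.4 to 72.2 in saline. The sum of 7 T and B cell markers ran from 1420 to 4080 at 11 weeks and from 1200 to 3350 at 19 weeks, against 163 to 625 in saline, though 2 of the 7 rose and 3 fell at 19 weeks. Of 7 cell cycle markers 5 rose at 11 weeks and 1 at 19 weeks, and none fell. Between 19 and 11 weeks all 7 were negative, with a median log2 difference of -0.97 and none called. Of 6 ciliated cell markers 1 fell at 11 weeks and 3 at 19 weeks, and of 8 erythroid markers 1 and 2 fell, with none rising in either list. All markers of these lists were detected. The part of these shifts in the changes of the sterol genes was not tested, and in whole lung more cells of a type and more RNA per cell cannot be told apart.

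The 2 exposures were also compared directly. No member was called between 19 and 11 weeks of HDM, a comparison in which edgeR called 0.106% of all genes. DESeq2 called 0 members, limma voom with sample weights called 6, and 11 members had an unadjusted p under 0.05. Over all 15979 genes, limma voom called 161 higher and 142 lower, and 2295 had an unadjusted p under 0.05 in edgeR. The enzymes had a median log2 difference of -0.46 with 14 of 18 negative, beside a median of 0.00 over all genes. Idi1 differed by -1.32 (SE 0.38, adjusted p 0.183), Cyp51 by -0.78 (SE 0.25, adjusted p 0.218), Msmo1, a sterol C4 oxidase, by -0.74 (SE 0.22, adjusted p 0.183) and Sqle by -0.63 (SE 0.20, adjusted p 0.201). Under the GC slope covariate all 18 enzymes were negative, with a median of -0.33, and none was called. Without the 9 libraries of GC slope above 0.75, Sqle, Idi1, Nsdhl and Stard4 were called lower at 19 weeks, with Idi1 at -1.20 (adjusted p 0.0365). That setting called 126 of all genes higher and 64 lower.

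Synthesis and efflux were set against each other within each mouse as the mean log2 CPM of the 18 enzymes minus the mean log2 CPM of Abca1, Abcg1 and Nr1h3. This score depends little on library scaling and is a description without a test. It was -1.80 ± 0.38 at 19 weeks (SD, n = 7), -0.88 ± 0.25 at 11 weeks (n = 6) and -0.98 ± 0.35 in saline (n = 5). The lungs at 19 weeks ran from -2.25 to -1.28 and did not overlap those at 11 weeks, which ran from -1.22 to -0.59. Saline lungs ran from -1.34 to -0.47, so they overlapped both. The enzyme mean was 4.95 at 19 weeks, 5.37 at 11 weeks and 4.93 in saline, and the efflux mean was 6.75, 6.24 and 5.91 in the same groups. The score difference between 19 weeks and saline was -0.82, and -0.61 once the GC slope term was removed. Between 19 and 11 weeks it was -0.92, and -0.78 with that term removed, where the 2 groups overlapped (the highest lung at 19 weeks at -1.32 and the lowest at 11 weeks at -1.35). At 11 weeks both means were above saline, and at 19 weeks the efflux mean was highest while the enzyme mean was close to that of saline.

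**Figure D3:**
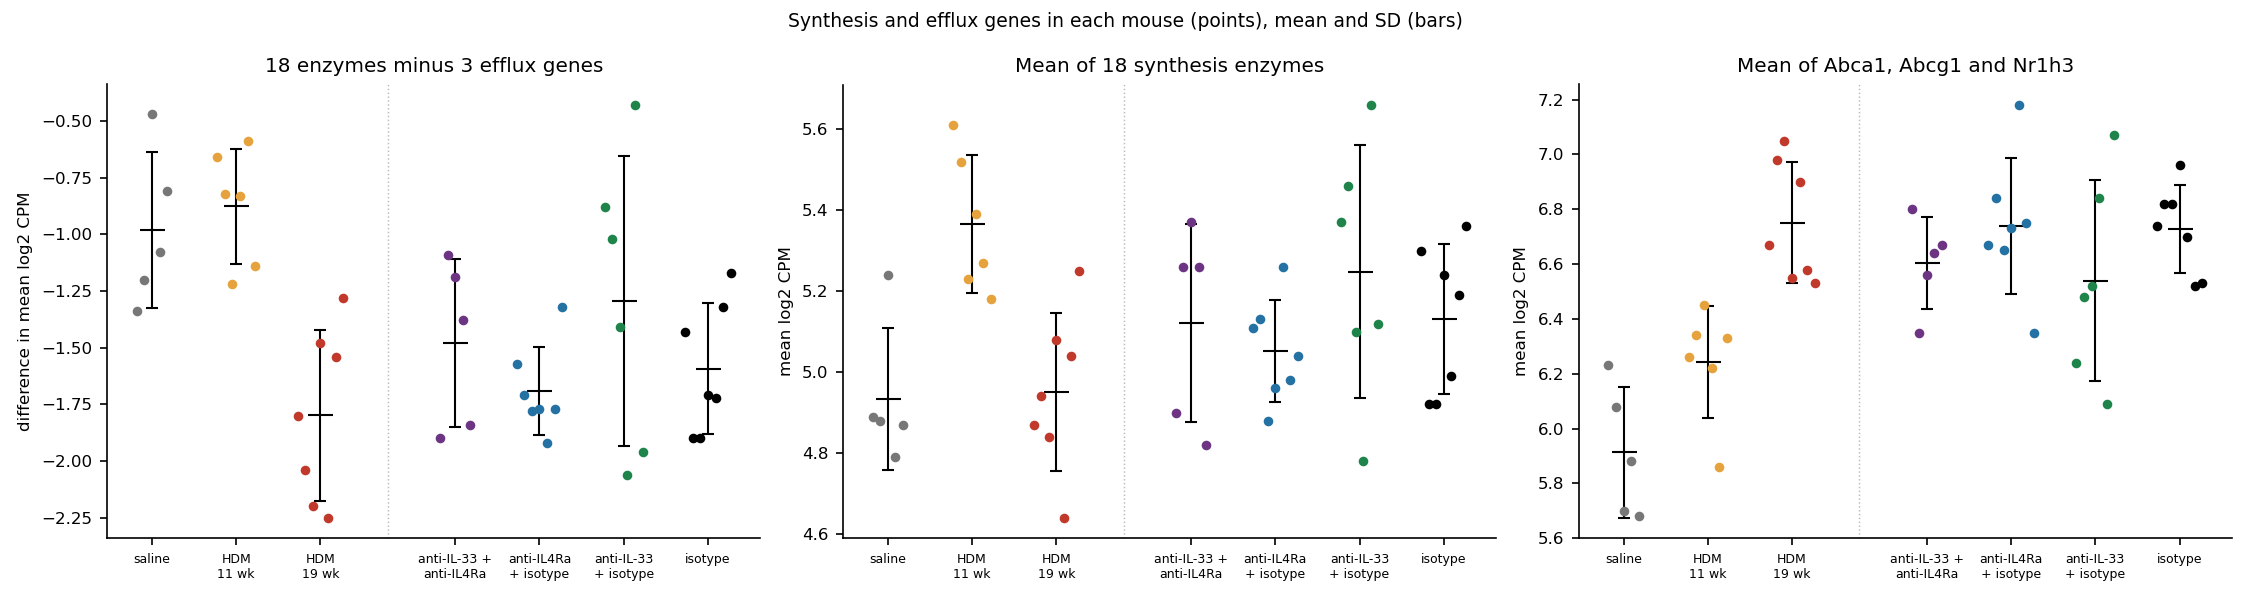
Mean log2 CPM of the 18 synthesis enzymes minus that of Abca1, Abcg1 and Nr1h3 (left), and the 2 means alone (middle and right), in each mouse (points) with mean and SD (bars). The score at 19 weeks of HDM averages -1.80, below 11 weeks at -0.88 and saline at -0.98, and the antibody groups average between -1.69 and -1.29.

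Isotype antibody was compared with 19 weeks of HDM without antibody, and no member was called (0.0% of all genes called by edgeR, with 0 members at an unadjusted p under 0.05, and 0 by DESeq2 and by limma voom). The score was -1.59 ± 0.29 with isotype and -1.80 ± 0.38 without antibody (n = 7 each).

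Each antibody alone was then compared with isotype at 19 weeks. The 3 antibody comparisons share the 7 isotype libraries. With anti-IL-33 no member was called (0.0% of all genes by edgeR). DESeq2 also called 0 members and limma voom 7, and 9 members had an unadjusted p under 0.05. Over all 15979 genes, limma voom called 479 higher and 534 lower, and 2879 had an unadjusted p under 0.05 in edgeR. With anti-IL4Ra no member was called (0.0% of all genes by edgeR), DESeq2 and limma voom called 0 members, and 6 had an unadjusted p under 0.05. In edgeR 2242 of all genes had an unadjusted p under 0.05 there. The largest differences were again in GC-rich transcripts. Mvk, the mevalonate kinase, differed by 1.16 (SE 0.47, adjusted p 0.264) with anti-IL-33 and by 1.22 (SE 0.46, adjusted p 0.308) with anti-IL4Ra. Without the libraries of GC slope above 0.75, all 18 enzymes were positive with anti-IL-33, at a median log2 difference of 0.26, and 17 of 18 were negative with anti-IL4Ra, at a median of -0.11, with none called in either. That setting left 4 anti-IL-33 and 4 anti-IL4Ra lungs. The 18 enzymes were measured in the same lungs, so their signs are not independent observations. The all-gene median in that setting is not given here. The score was -1.29 ± 0.64 with anti-IL-33 (n = 6) and -1.69 ± 0.19 with anti-IL4Ra (n = 7), against -1.59 ± 0.29 with isotype, differences smaller than the spread between mice. The anti-IL-33 lungs had the widest range of the 7 groups, from -2.06 to -0.43.

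Under the combination, Mvk, Mvd, Msmo1, Srebf2, Scap and Nr1h3 rose relative to isotype and Abca1 fell. That is 7 of 30 members (23.3%), where 19.0% of all genes were called, 12.6% higher and 6.32% lower. Median log2 fold changes were 0.12 over the 18 enzymes and 0.04 over all 30 members, beside 0.04 over all genes. Mvk had 82.2, 7.79, 18, 45.7 and 59.1 CPM in the 5 combination lungs, against 9.27, 14.2 and 22.4 CPM with isotype. Srebf2 had 673, 82.2, 197, 411 and 497 CPM under the combination, against 112, 138 and 190 CPM with isotype. For both genes the order of the 5 lungs was that of their GC slopes, with replicates 1, 8 and 5 highest, replicate 3 next and replicate 2 lowest, below every isotype lung.

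The log2 fold change was 1.54 for Mvk (SE 0.49, adjusted p 0.0326), 1.38 for Srebf2 (SE 0.41, adjusted p 0.0262), 1.48 for Scap (SE 0.50, adjusted p 0.0378) and 0.99 for Mvd (SE 0.35, adjusted p 0.0456). Without the 3 combination libraries of GC slope above 0.75 and the 6 such libraries of other groups, these values were -0.15, -0.01, -0.25 and -0.11, and none was called. A GC slope covariate gave 0.42, 0.44, 0.32 and 0.24, and none was called. Srebf1 was not called in either case, at 1.51 (SE 0.58, adjusted p 0.0562) with all libraries and -0.40 without the steep ones. The rise of the GC-rich members was thus present with the steep libraries and absent without them, which leaves 2 combination lungs, replicates 2 and 3.

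**Figure D4:**
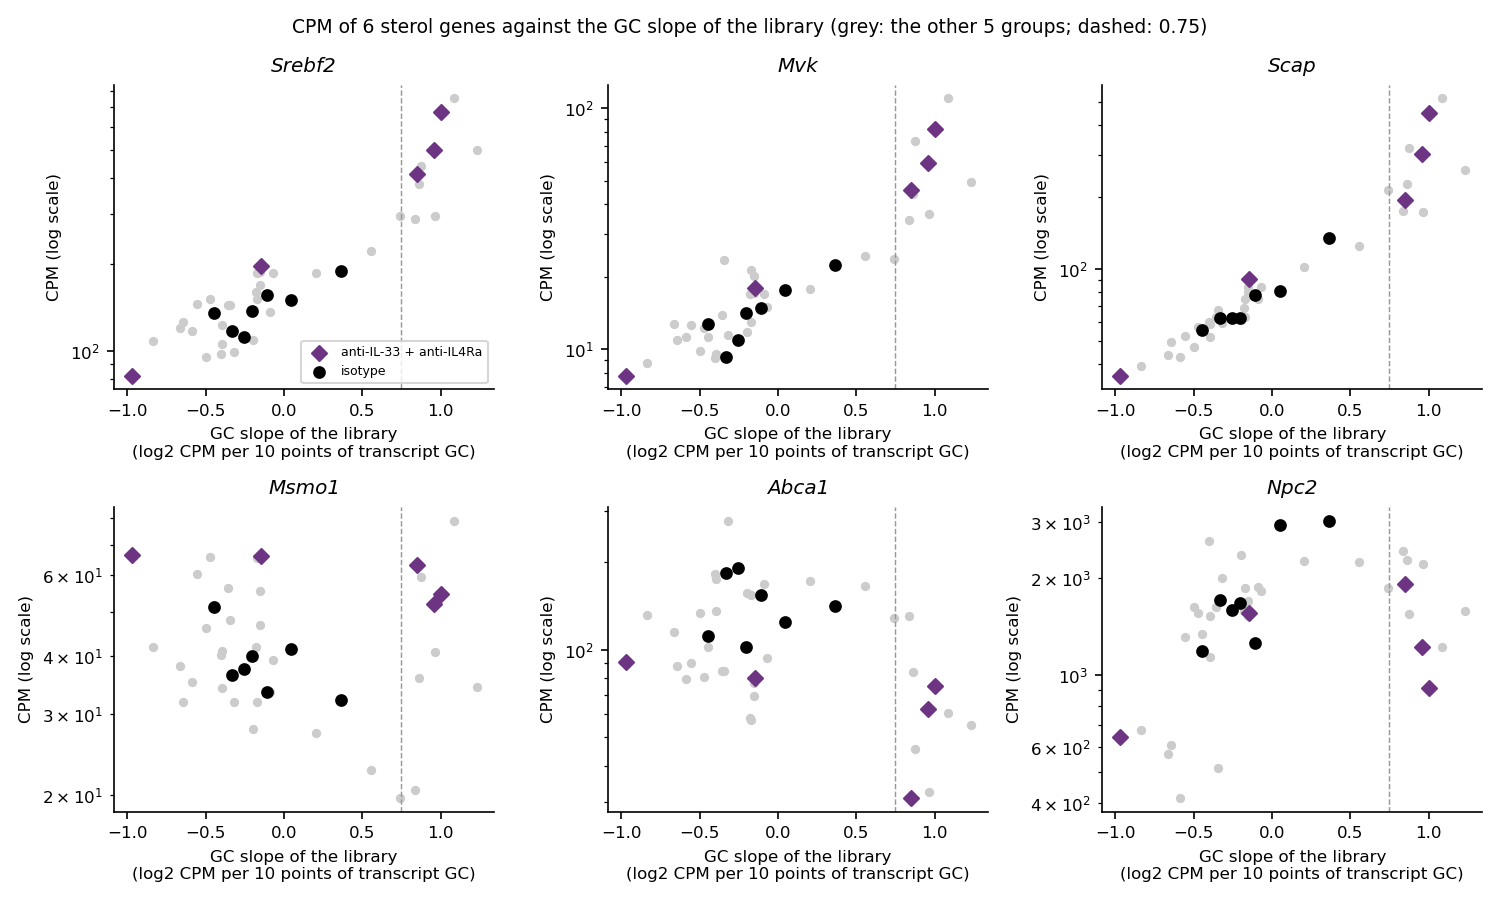
CPM on a log axis (y) against the GC slope of the library (x, change in log2 CPM per 10 percentage points of transcript GC) for 6 members, with combination libraries as diamonds, isotype libraries as black circles and the other 5 groups in grey, and a dashed line at 0.75. Srebf2, Mvk and Scap are higher at steeper slopes, from 82.2 to 673 CPM for Srebf2 within the combination, whereas Msmo1 and Npc2 show no such order.

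Msmo1 and Abca1 differed from isotype with no overlap, the only 2 members of 30 to do so (4.39% of all genes). Msmo1 had 54.6, 66.3, 66.2, 63.1 and 52.0 CPM under the combination, against 32.1, 37.6 and 51.1 CPM with isotype. It rose by 0.64 on the log2 scale (SE 0.23, adjusted p 0.0455), 0.70 (adjusted p 0.0309) with the GC slope in the model, and 0.78 (adjusted p 0.0744) without the steep libraries. The call ended without any of 10 of the 12 libraries, all but isotype replicate 9 and combination replicate 2, with fold changes from 0.59 to 0.71 and adjusted p up to 0.134. Abca1 had 75, 91.0, 79.6, 31.0 and 62.3 CPM under the combination, against 102, 141 and 191 CPM with isotype. Its log2 fold change was -1.08 (SE 0.34, adjusted p 0.0318), -0.83 (adjusted p 0.0537) with the GC slope in the model and -0.74 (adjusted p 0.211) without the steep libraries. Its call ended without isotype replicate 2 or 3 or combination replicate 1, 5 or 8, with adjusted p up to 0.108. Both thus kept size and sign better than the GC-rich members.

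Nr1h3 had 121, 37.6, 54.4, 94.2 and 98.8 CPM under the combination, against 36.0, 41.7 and 50 CPM with isotype. Its change was 0.96 on the log2 scale (SE 0.30, adjusted p 0.0311), 0.42 (adjusted p 0.0303) with the GC slope in the model and 0.16 (adjusted p 0.635) without the steep libraries. Abcg1 was level, at -0.02, with 152, 159, 193, 340 and 170 CPM under the combination and 176, 195 and 272 CPM with isotype. Npc2 had 911, 643, 1560, 1920 and 1220 CPM under the combination, against 1190, 1670 and 3020 CPM with isotype. A log2 fold change of -0.61 (SE 0.25, adjusted p 0.0676) did not pass, and it was -0.71 (adjusted p 0.0358) with the GC slope in the model and -0.77 (adjusted p 0.146) without the steep libraries. Soat1 differed by -0.71 (SE 0.31, adjusted p 0.0875) and Npc1 by -0.49 (SE 0.27, adjusted p 0.158).

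The 7 calls of the combination moved further with single libraries than those of any other comparison. Leaving out combination replicate 2, whose GC slope was -0.97, gave 15 members called, 8 higher and 7 lower, and leaving out combination replicate 1 or 8 gave 0. Calls over all 15979 genes moved as well, from 207 to 7899 with single libraries left out. Without combination replicate 2 they were 4045 higher and 3854 lower, so the rise in calls was not particular to the members. Summed macrophage markers ran from 9170 to 25800 CPM under the combination, against 7780 to 10600 CPM with isotype, though only 1 of the 10 genes rose. Of the alveolar macrophage list 5 of 10 rose and none fell, while their sum ran from 5160 to 11700 CPM, against 6470 to 16800 CPM with isotype. Of the club cell list 4 of 5 rose and none fell, with sums from 6030 to 13800 CPM, against 1910 to 6870 CPM. All 7 adipocyte markers rose under the combination, with sums from 20 to 535 CPM, against 4.49 to 20.2 CPM with isotype. Their part in these values was not tested.

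**Figure D5:**
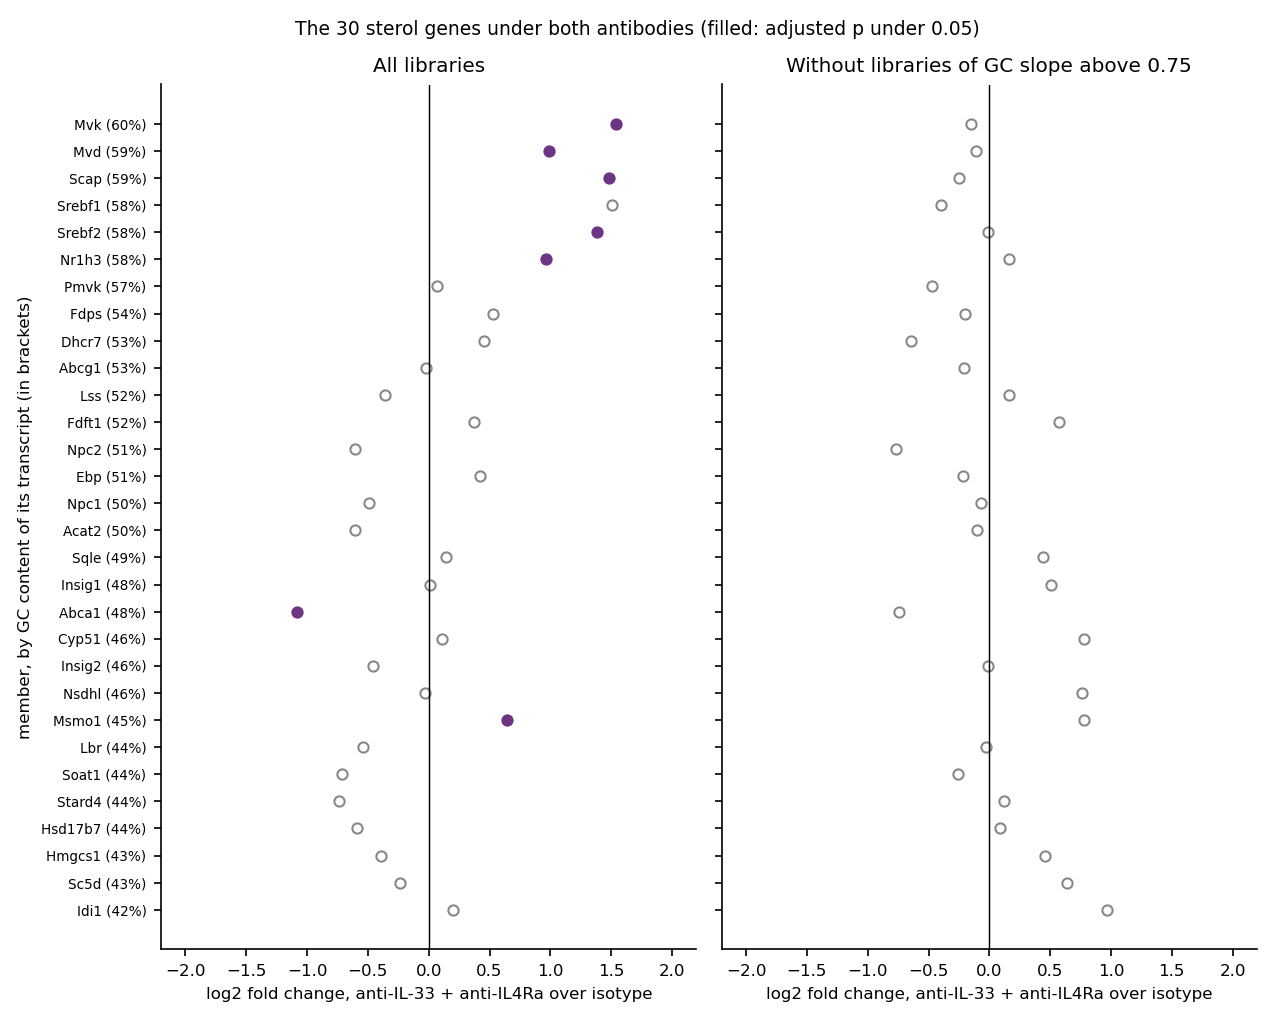
Log2 fold change of the combination over isotype (x axis) for the 30 members, ordered by the GC content of the transcript (y axis, in percent), with all libraries (left) and without libraries of GC slope above 0.75 (right), filled where the adjusted p was under 0.05. On the left the 6 most GC-rich members lie between 0.96 and 1.54, and on the right those 6 lie between -0.40 and 0.16.

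Against either antibody alone the combination gave no called member, where 0.0438% of all genes were called against anti-IL-33 and 0.119% against anti-IL4Ra. DESeq2 called 0 members in both, limma voom called 20 and 19, and 0 and 3 members had an unadjusted p under 0.05. Against anti-IL-33, limma voom called 3736 of all genes higher and 4066 lower. The all-gene count of voom against anti-IL4Ra is not given here, so its 19 member calls cannot be set against a share. In edgeR's test 778 and 1707 of the 15979 genes had an unadjusted p under 0.05. Against saline, 17 of 30 members (56.7%) were called under the combination, 13 higher and 4 lower, where 48.1% of all genes were called, 27.8% higher and 20.3% lower. Dhcr7, Mvd, Abcg1 and Npc2 were higher there, as in the 3 HDM comparisons with the same saline libraries, and Lbr was lower, as at 19 weeks and with isotype. Mvd had a log2 fold change of 2.66 (SE 0.41, adjusted p 7.20e-06), and 1.55 (adjusted p 7.11e-05) without the steep libraries. The median over the 30 members was 0.54, beside 0.01 over all genes. It was 0.20 with the GC slope in the model and 0.36 without the steep libraries.

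Genes of the same pathways outside the 30 were described from 2 further lists. Of 20 other sterol pathway genes, 19 were tested, and 3 rose and 2 fell at 11 weeks, 6 rose and 3 fell at 19 weeks, 5 rose and 3 fell with isotype, and 2 rose and 1 fell under the combination relative to isotype. Ch25h, which makes 25-hydroxycholesterol, an oxysterol ligand of LXR, had 60.9 ± 17.2 CPM at 11 weeks and 50.1 ± 14.9 CPM at 19 weeks, against 3.08 ± 0.838 CPM in saline (SD, n = 6, 7 and 5), with log2 fold changes of 4.30 and 4.02 (edgeR adjusted p 4.13e-12 and 1.27e-11). Lipa, the lysosomal acid lipase that frees cholesterol from its esters, had 284 ± 56.5 and 307 ± 52.0 CPM at these exposures, against 101 ± 19.4 CPM in saline. The log2 fold changes of Lipa were 1.5 and 1.61 (adjusted p 3.65e-06 and 4.37e-07). Cyp27a1, the sterol 27-hydroxylase, fell by 1.21 and 1.28 on the log2 scale, and Vldlr, a receptor of the LDL receptor family, fell by 1.86 and 1.77. All 4 genes kept their calls without saline replicate 3, and also when the GC slope was fitted. None of the 4 was called under the combination relative to isotype.

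Of 12 genes of fatty acid synthesis, 1 rose and 3 fell at 11 weeks, 3 rose and 3 fell at 19 weeks, 2 rose and 3 fell with isotype, and 2 rose and 3 fell under the combination relative to isotype. Me1, which supplies NADPH, had 236 ± 32.4 CPM at 11 weeks and 284 ± 93.7 CPM at 19 weeks, against 107 ± 77.7 CPM in saline, where replicate 3 held 244 CPM. It rose by 1.15 and 1.41 on the log2 scale (adjusted p 0.0180 and 0.00151). Under the combination it had 108 ± 24.6 CPM, against 269 ± 67.2 CPM with isotype, a log2 fold change of -1.32 (adjusted p 0.0155) and of -1.08 (adjusted p 0.108) without the steep libraries. Acss2, which makes acetyl-CoA from acetate, fell by 1.43 and 1.99 at 11 and 19 weeks, and by 1.07 and 1.64 without saline replicate 3. Thrsp, a lipogenic protein, fell by 3.85 and 3.89, and by 1.55 and 1.60 without saline replicate 3, which held 197 CPM against a saline median of 11.2 CPM. All 7 adipocyte markers fell at both exposures too, with median log2 fold changes of -4.28 at 11 weeks and -3.43 at 19 weeks. These fold changes include saline replicate 3, and values without it are not given here. Summed adipocyte markers ran from 28.4 to 1190 CPM in saline, with a median of 54.6 CPM and the highest in replicate 3. They ran from 6.7 to 28.6 CPM at 11 weeks and from 3.31 to 118 CPM at 19 weeks, so both overlapped saline. Under the combination Thrsp had 10.4 ± 6.84 CPM, against 2.38 ± 1.22 CPM with isotype, a log2 fold change of 2.11 (adjusted p 0.0301), 1.71 (adjusted p 0.0799) with the GC slope in the model and 1.60 (adjusted p 0.275) without the steep libraries. The part of the adipocyte markers in these values was not tested. Elovl6, a fatty acid elongase, had fold changes of -1.60 and -2.12 on the log2 scale, and of -0.07 (adjusted p 0.926) and -0.61 (adjusted p 0.171) without that library.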

How the data were processed

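Whole-lung RNA of 43 mice in 7 groups was analysed, grouped by the labels. The deposited table holds expected counts per NCBI Gene ID, which the authors made on genome build mm10 per the submitters' processing notes. The aligner, the counter and its strand setting were not given in the labels or notes, so overlapping genes may share reads. After rounding to whole numbers, filterByExpr by group removed low genes, TMM scaled the libraries, and 1 model with a mean per group was fitted to all 43 libraries with edgeR 4.0.16 (robust quasi-likelihood, 2-sided, Benjamini-Hochberg over 15979 genes) in R 4.3.3. The procedure was tested on simulated data. Alternatives used DESeq2 1.42.0, limma 3.58.1 voom with sample weights, a replicate block, a GC slope covariate and leaving out libraries. Transcript GC and length came from the longest GENCODE transcript of each gene, protein-coding ones first, and GC slopes were fitted from that GC. A printed CPM is the group's or mouse's value after TMM.

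The 30 members and all lists were chosen with earlier results of these data known. Values were given for members called against saline or under the combination (up to 6 per role), for Srebf1, Srebf2, Insig1, Abca1, Abcg1 and Nr1h3 in any case, and for up to 4 genes of each further list by smallest adjusted p. Msmo1 was the seventh called enzyme by size and was added after its values were seen. Replicate numbers were checked for pairing: every same-numbered pair correlated above 0.1 only between the combination and anti-IL-33 (0.50 to 0.65, 3 pairs). That comparison gave 0 member calls with and without a replicate block.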

Additional observations from a re-analysis of the deposited data

Results flagged for a closer look

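Within each group of 5 to 7 mice the highest and lowest value was compared with the next one, for the log2 CPM of each of the 30 members and for the synthesis-minus-efflux score, at a limit that chance passes in about 1 of 20 groups. Of 217 sets examined, 31 measures in 7 groups, 17 passed, where chance would give 10.85 if they were independent. Anti-IL4Ra replicate 2, which held 193000 CPM of erythroid markers and a GC slope of 1.09, was the lowest of its group for Hsd17b7 (1.45), Nsdhl (2.69), Lbr (3.96), Insig1 (4.93), Stard4 (1.30), Soat1 (6.16) and Npc1 (6.26) and the highest for Msmo1 (6.30). Saline replicate 3, the library with adipocyte and squamous markers, was the highest saline lung for Dhcr7 (5.01), Fdps (6.39), Fdft1 (6.02), Mvd (3.84) and Srebf1 (7.03). The other 4 values were Lss at 3.96 in HDM 19-week replicate 7 (lowest), Hsd17b7 at 4.43 in HDM 11-week replicate 1 (highest), Npc1 at 7.13 in HDM 11-week replicate 8 (lowest) and Scap at 7.08 in isotype replicate 4 (highest). The part of the markers and the slope in these values was not tested.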

How the results depend on the processing

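Of 47 calls of a member in a comparison, DESeq2 and limma voom with sample weights ended none, a replicate block ended 11, the GC slope covariate ended 13 and turned 3, and leaving out libraries of GC slope above 0.75 ended 12 and turned 5. Leaving out each library in turn ended 86 of 524 and turned none. The limit of 0.7 was chosen after seeing the data. Member counts at 11 weeks over saline (6) were 17 with limma voom, 13 with only the compared groups, 11 with the GC slope, 10 with replicate block and GC slope, and 12 without libraries above 0.75 or 0.7. Calls over all genes rose too, from 1382 higher and 1077 lower to 4356 and 4263 with voom and 2584 and 2861 for 0.75. With the GC slope they were 2407 and 2106, and for 0.7 they were 2766 and 3110. At 19 weeks over saline (10) member counts were 22 with limma voom, 18 with only the compared groups, 19 for the limit of 0.75 and 16 for 0.7. Over all genes, calls rose from 3072 higher and 2490 lower to 5340 and 4983 with voom, 4442 and 4342 for 0.75, and 3768 and 3801 for 0.7. For isotype over saline (7) member counts were 23 with voom, 18 with only the compared groups, 12 with the GC slope, 12 with the replicate block and GC slope, 16 for 0.75 and 19 for 0.7. All-gene calls rose from 2073 higher and 1977 lower to 5384 and 5132 with voom and 3798 and 4120 for 0.75. With the GC slope they were 3070 and 2929, and for 0.7 they were 4028 and 4332. For 19 over 11 weeks (0) limma voom gave 6 member calls, the limit of 0.75 gave 4 and that of 0.7 gave 0. For anti-IL-33 over isotype (0) voom gave 7. For the combination over isotype (7) voom gave 20 member calls, the replicate block 0, the GC slope 3, both 4, the limit of 0.75 gave 0 and that of 0.7 gave 2. All-gene calls moved from 2019 higher and 1010 lower to 4497 and 4764 with voom. They were 262 and 289 with the block, 932 and 1478 with the GC slope, 360 and 129 for 0.75, and 479 and 207 for 0.7. Over anti-IL-33 and anti-IL4Ra (0 each) voom gave 20 and 19 members, and over saline (17) the replicate block with the GC slope gave 10 and the limit of 0.75 gave 11. Over anti-IL-33, voom called 3736 of all genes higher and 4066 lower. The replicate block alone gave 5, 7 and 7 member calls for the 3 HDM comparisons with saline and 18 for the combination over saline. Over all genes it called 1142 higher and 802 lower, 2136 and 1707, and 1719 and 1572 in those 3 comparisons. All-gene calls are not given here for only the compared groups or for the block with the GC slope. Nor are they given for the alternatives of the combination over saline or for voom over anti-IL4Ra. Those member counts cannot be set against a share of all genes.

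Leaving out single libraries gave 3 to 6 member calls at 11 weeks over saline (3 without saline replicate 5), 7 to 11 at 19 weeks, 6 to 7 with isotype, 0 to 15 for the combination over isotype, 0 to 1 over anti-IL4Ra (1 without anti-IL4Ra replicate 2) and 15 to 21 over saline. Calls over all genes ran from 1870 to 2356, 4360 to 5714 and 3325 to 4249 for the 3 HDM comparisons. For the combination they ran from 207 to 7899 over isotype, 1 to 583 over anti-IL4Ra and 4854 to 10015 over saline. For the combination over isotype, leaving out isotype replicates 1, 2, 3, 6 and 8 gave 4, 1, 1, 4 and 3 member calls, and leaving out combination replicates 1, 2, 5 and 8 gave 0, 15, 4 and 0. Directions turned for Srebf1 at 19 weeks over saline (-0.17 with the GC slope, -0.08 with the block too) and in the combination over saline (-0.09 and -0.08). For Mvk over saline in the combination they turned to -0.22 with the GC slope and -0.22 with the block too, and to -0.06 and -0.07 for the limits of 0.75 and 0.7. Over isotype these limits turned Mvd to -0.11 and -0.12, Mvk to -0.15 and -0.16, Srebf2 to -0.01 and -0.03, and Scap to -0.25 and -0.26. The score difference of the combination over isotype (0.11) was 0.60 without Nr1h3 and 0.45 at the limit of 0.75, that over saline (-0.50) was -0.13 without Nr1h3, and that over anti-IL4Ra was 0.62 at the limit of 0.75. Causes beyond the construction of each setting were not tested. In 3 of 5 combination lungs a steep GC slope limits what can be said of GC-rich members, and leaving them out leaves 2 lungs.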
